A study of Mus musculus with 12 samples.

Results

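The G1 cell-cycle brake and the kinases it holds back were followed as 10 genes in the DNA of a pair of murine pancreatic ductal adenocarcinoma (PDAC) lines, 15376T and 14837T. The genes were taken by name and found in the gene column of the copy-number segments of each line, and all 10 were found in both lines, in 1 segment each, among 20952 autosomal gene names that lie in 1 segment in each line. They are the INK4 inhibitors Cdkn2a, Cdkn2b and Cdkn2c, the CIP/KIP inhibitors Cdkn1a and Cdkn1b, the pocket protein gene Rb1, the kinases Cdk4 and Cdk6, and the cyclins Ccnd1 and Ccne1. Each line came from a C57BL/6 mouse that carried p48-Cre, ROSA_rtTA and a floxed allele of p53 next to a wild-type one. The Cre is driven by the promoter of p48 (Ptf1a), a pancreatic factor, and the culture medium contained doxycycline, which activates rtTA. Neither line carries the LIN28B knockout, and the WT of the labels is read here as without that knockout. Each is a single primary line from a single tumor. Genomic DNA was captured and sequenced as whole-exome sequencing (WES), with 1 library per line and no replicate, so no difference between the lines could be tested. Plots give the name of each library, which is that of its line with the prefix WES. DNA carries no marker of cell type, so the label PDAC could not be checked in these tables.

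Cells pass from G1 into S phase when cyclin D with Cdk4 or Cdk6, and then cyclin E with Cdk2, phosphorylate the Rb protein and free the E2F factors that switch on the genes of DNA replication. INK4 proteins bind Cdk4 and Cdk6 and keep cyclin D away, whereas CIP/KIP proteins bind cyclin-kinase complexes, above all those of Cdk2. In pancreatic cancer the CDKN2A locus is among the genes lost most often, frequently with its neighbors CDKN2B and MTAP. In the mouse as in man, Cdkn2a makes 2 unrelated proteins from separate starts, the kinase inhibitor p16Ink4a and p19Arf, which protects p53 from Mdm2.

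The measure throughout is the log2 ratio of coverage of a segment to a copy-number reference, where bins next to each other with like coverage are joined into a segment and 0 is no change. The authors' integer calls followed a log2 above 0.2 for a gain and a log2 of -0.25 or lower for a loss, with 0 exceptions in each line. On this scale, 1 copy in every cell would give -1 and 3 copies in every cell 0.585. A gene has the value of its whole segment, so genes in a shared segment have a single measurement between them. The 103 autosomal segments at 2 copies in 15376T had an SD of log2 of 0.090 and the 96 in 14837T had 0.095, which is the spread used here in place of a replicate error, and the root of their summed squares, 0.13, is the spread of a difference between the lines. Segments enter this spread only if their log2 lies between the thresholds of the calls, and each counts once whatever its number of bins. A called gain or loss therefore lies outside the range of these segments by definition. Mean depth over segments at 2 copies was 46.0 in 15376T and 47.5 in 14837T. The capture kits named by the labels and by the methods were designed for human exons, so depth varies between genes for reasons of capture as well as copy number.

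Losses prevailed among the 10 genes. In 15376T, 6 were called lost (1 copy), 3 were at 2 copies and 1 was gained (3 copies), where 30% of all gene names were lost and 9.09% gained. In 14837T, 7 were lost, 1 was at 2 copies and 2 were gained, where 28.8% of all names were lost and 21.4% gained. The 6 genes lost in 15376T, Cdkn2a, Cdkn2b, Cdkn2c, Rb1, Ccnd1 and Ccne1, were all lost in 14837T as well, against 22.4% of all names lost in both. These counts rest on few measurements, since the 6 losses lie in 3 segments of 15376T and the 7 losses in 5 segments of 14837T. The median log2 of the 10 genes was -0.53 in 15376T and -0.39 in 14837T, and that of all names was -0.023 and -0.045. Losses were found on both sides of the pathway. Of the 6 genes that hold cells in G1 (INK4, CIP/KIP and Rb1), 4 were lost in each line, and of the 4 kinases and cyclins, 2 were lost in 15376T and 3 in 14837T.

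**Figure D1:**
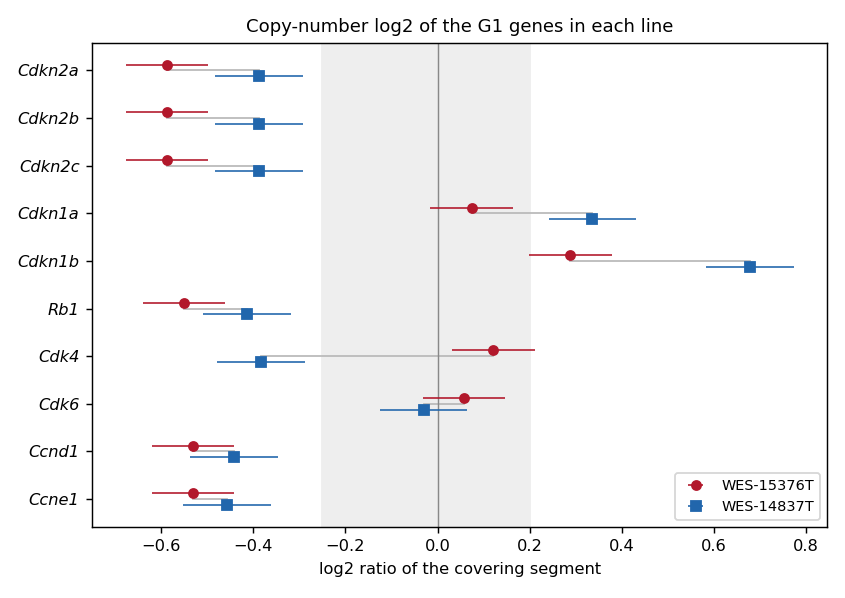
Log2 ratio of the segment that covers each of the 10 genes (x axis, log2) in 15376T (circles) and 14837T (squares), with bars of 1 SD of the segments called at 2 copies in that line and the range of a 2-copy call shaded. Cdkn2a, Cdkn2b, Cdkn2c, Rb1, Ccnd1 and Ccne1 lie left of the shaded range in both lines, Cdkn1b lies right of it in both, and Cdk4 is inside it in 15376T (0.12) and left of it in 14837T (-0.38).

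The 3 INK4 members lie on chromosome 4, Cdkn2a from 89274473 to 89294619, Cdkn2b 11.7 kb beyond it from 89306289 to 89311032, and Cdkn2c, which encodes p18Ink4c, from 109660876 to 109666756 (GRCm38). RefSeq gives Cdkn2a starts that lie 12.4 kb apart, the upstream one for p19Arf and the downstream one for p16Ink4a. They are shown because no value below tells these products apart, since the gene's own 3 bins run from 89276635 to 89294547, past the downstream start and to 72 bases short of the upstream one. The 15 bases before each start are in lower case and the first 15 transcribed bases in capitals.
Cdkn2a, upstream start, chr4:89294605-89294634, minus strand: ggggcggcgcgtgggTCTCGAGGTGCCTCA
Cdkn2a, downstream start, chr4:89282178-89282207, minus strand: aggaaggagggacccACTGGTCACACGACT
The letters of an E2F element (TTTCCCGC, TTTGGCGC, TTTCGCGC or TTTGCCGC, either strand, from 250 bases before to 50 after a start) occur once, in capitals here, in the upstream window of Cdkn2a, 99 bases before the start.
Cdkn2a, E2F letters, chr4:89294700-89294729, minus strand: ctctgggaagcTTTCCCGCgcgactgggga
They were present in 1 of the 11 windows that RefSeq (GRCm38.p6) gives for 8 of the 10 genes, and in 2.26% of all 32851 windows. The match is a description of the letters and says nothing of binding in these lines.

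Cdkn2a, Cdkn2b and Cdkn2c had 1 copy by the calls of both lines, and a single segment of each line holds all 3. The remaining INK4 gene, Cdkn2d on chromosome 9, was at 2 copies in 15376T (0.099) and gained in 14837T (0.36). In 15376T this segment ran over 143 Mb and 11970 bins with a log2 of -0.59. In 14837T it began further in, ran over 82.9 Mb and 8203 bins, and had a log2 of -0.39. The nearest border lay 56.8 Mb from Cdkn2a in 15376T and 26.0 Mb from it in 14837T, so neither loss was centered on the locus. The log2 was lower in 15376T by 0.20, which is 1.52 times the spread of a difference and lies at the 62.2nd percentile of absolute differences over all names. The BAF of the segment, a fraction of reads carrying the other allele at variant positions, was 0.084 in 15376T and 0.052 in 14837T, close to the autosomal medians of 0.077 and 0.061.

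The gene tables give each listed gene a read depth over its own bins, and in 15376T this depth differed between the 3 INK4 members. Cdkn2a had a depth of 21.8 over 3 bins, Cdkn2b of 12.6 over 2 bins and Cdkn2c of 29.8 over 2 bins, where their shared segment averaged 29.8. Cdkn2c therefore stood at the level of its segment, and Cdkn2a and Cdkn2b stood below it, with log2 ratios of own to segment depth of -0.45 and -1.24. Among genes listed in 15376T with as many bins, the ratio of own to segment depth lay at the 18.4th percentile for Cdkn2a (534 genes), at the 3.50th for Cdkn2b and at the 43.9th for Cdkn2c (572 genes). The coding genes next to the pair had higher depths. Mtap, a gene of purine salvage 93.4 kb from Cdkn2a on the side away from Cdkn2b, had 49.8 over 7 bins, and Dmrta1, 377 kb beyond Cdkn2b, had 31.7 over 2 bins. Reads remained over both Cdkn2a and Cdkn2b. 14837T lists none of these genes, because its segment at -0.39 lies under the absolute log2 of 0.40 from which genes are listed, so whether the low depth is particular to 15376T or common to both lines was not tested. The bins of Cdkn2b also carry the name Gm12610. Cdkn2a and Cdkn2b are related in sequence, and how reads that fit both were assigned is not given in the sources used here.

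**Figure D2:**
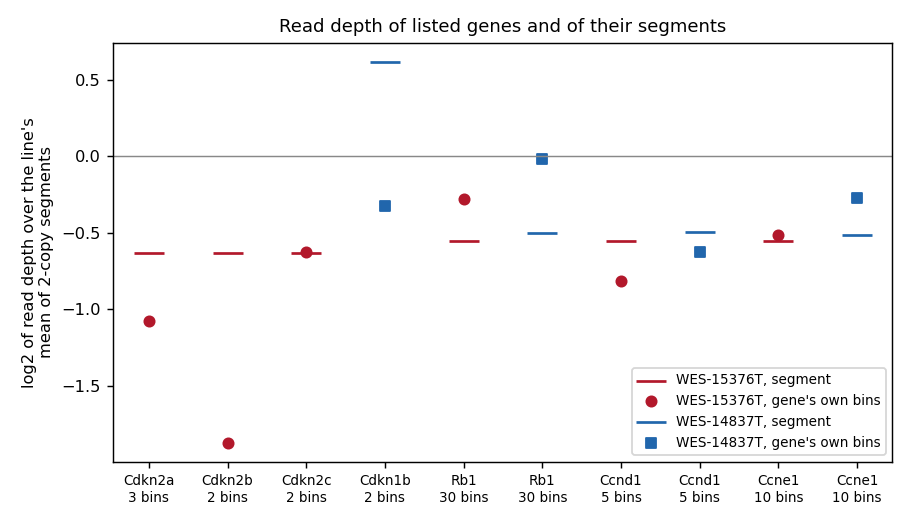
Mean read depth over a gene's own bins (points) and over its whole segment (dashes), each as log2 over the mean depth of segments called at 2 copies in that line (y axis), for each listing of a member in the gene tables, with 15376T in red and 14837T in blue. Cdkn2b in 15376T (-1.87) and Cdkn1b in 14837T (-0.33 against 0.62 for its segment) lie farthest below their segments. Rb1 and Ccne1 each lie above their segment in both lines, Ccne1 by 0.039 in 15376T and 0.25 in 14837T.

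Neither CIP/KIP member was called lost. Cdkn1a encodes p21, the inhibitor that p53 induces after DNA damage, and lies on chromosome 17 from 29090979 to 29100722. It was called at 2 copies in 15376T, with a log2 of 0.074 over 4453 bins, and at 3 copies in 14837T, with a log2 of 0.34 over 3475 bins. The difference of 0.26 is 2.00 times the spread and lies at the 73.0th percentile of all names. The segments of both lines began at the same base, 17064101, and the next segments along the chromosome in 14837T, with a log2 of 0.43 and 0.32, were also gained, so that Cdkn1a lay within a long gain of that line.

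Cdkn1b encodes p27, which holds cyclin E and Cdk2 in check, and lies on chromosome 6 from 134920401 to 134925525. It was the only member gained in both lines, against 6.87% of all names. In 15376T its log2 was 0.29 over 471 bins and 7.21 Mb, and in 14837T it was 0.68 over 56 bins and 0.498 Mb. The second is the smallest segment of any member, lies above the 0.585 of 3 copies in every cell, and was matched or exceeded by 5 of the 224 autosomal segments of 14837T with itself included. It holds 11 gene names. The segment before it in 14837T was at 2 copies with a log2 of -0.17 (156 bins), and the segment after it was at 3 copies with a log2 of 0.31 (171 bins), so the step up lay 0.310 Mb before Cdkn1b. The line's own depth moved with the log2, at 41.4 before the segment, 73.0 over it and 58.3 after it.

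Within this segment Cdkn1b had the lowest depth of all. Its depth was 37.9 over 2 bins, whereas the other 10 genes, named here after their values were seen, ranged from 52.8 in Borcs5 to 115 in Ddx47 with a median of 101. The nearest coding genes, Gpr19 and Apold1, had depths of 68.9 (1 bin) and 102 (4 bins). Relative to segments at 2 copies, the own depth of Cdkn1b was -0.33 on the log2 scale, below 0 where the segment is above it. Its ratio of own to segment depth lay at the 5.21st percentile of the 384 genes listed in 14837T with 2 bins. Cdkn1b holds 2 of the 47 bins that these 11 genes have, so the log2 of the segment rests mostly on the genes around it. 15376T does not list Cdkn1b, as its log2 of 0.29 is under 0.40, so its usual depth in this capture was not tested. The start of the gene is shown because its 2 bins begin 516 bases beyond it and end 3391 bases before the end of the gene. Its window had a GC content of 62%, against a median of 52.7% over all windows.
Cdkn1b, start, chr6:134920386-134920415, plus strand: tttaaatagacttgcAGTGTCAATCATCTT

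**Figure D3:**
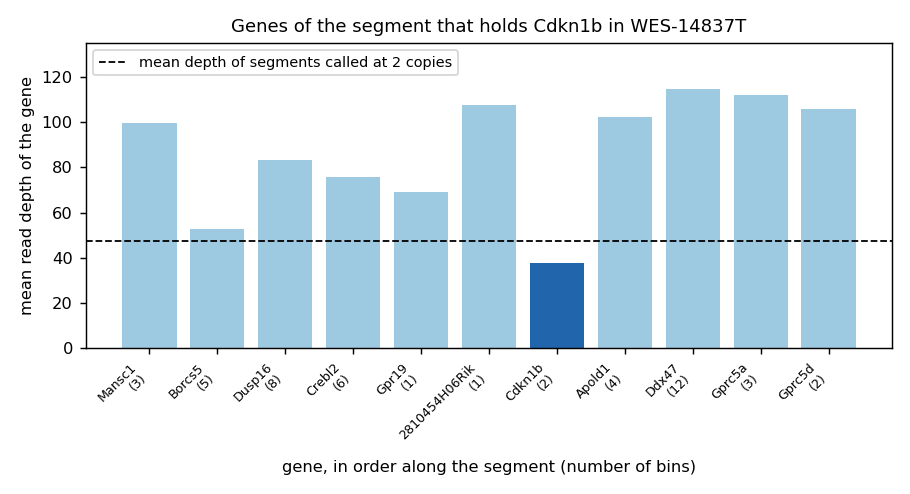
Mean read depth (y axis) of the 11 genes in the segment of 14837T that holds Cdkn1b, in order along the chromosome, with the number of bins in brackets and the mean depth of segments called at 2 copies as a dashed line. Cdkn1b (37.9) is the only gene under the line at 47.5.

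Rb1, the target of the G1 kinases, lies on chromosome 14 from 73192858 to 73325951. It was lost in both lines, with a log2 of -0.55 over 5311 bins in 15376T and -0.41 over 3244 bins in 14837T. Its segment ran over 81.2 Mb in 15376T and 65.4 Mb in 14837T, to the last base covered on the chromosome in each. The difference of 0.14 was 1.04 times the spread and lay at the 51.7th percentile. With 30 bins Rb1 has the most of the 7 members listed in a gene table, and its own depth was 37.9 in 15376T and 47.0 in 14837T. Over the mean depth at 2 copies these were -0.28 and -0.016 on the log2 scale, so that in 14837T the own depth of Rb1 was at the level of segments at 2 copies. Both values lay above the segment, by 0.28 and 0.49, and at the 46.2nd percentile of 26 genes and the 62.5th of 16 genes with as many bins, so they were ordinary for such genes. The ratio of the own depths between the lines, each over its 2-copy mean, was -0.26 on the log2 scale, against a segment difference of -0.14. This is -0.13 from the segments' difference. In 1985 genes with 5 or more bins in the tables of both lines, the same quantity had a mean of -0.046 and an SD of 0.15, so Rb1 lay within 1 SD of the mean. Its neighbors Rcbtb2 (40.2 and 44.8 over 11 bins) and Itm2b (32.9 and 42.5 over 7 bins) had lower depths in 15376T as well.

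Cdk4 separated the lines most among the 10 genes. It encodes the kinase that INK4 proteins inhibit, and lies on chromosome 10 from 127063535 to 127067288. It was called at 2 copies in 15376T, with a log2 of 0.12 over 1114 bins, and at 1 copy in 14837T, with a log2 of -0.38 over 1509 bins. The difference of 0.50 was 3.84 times the spread and lay at the 93.7th percentile of all names. The lines' own segment depths, 52.7 and 37.1, gave a log2 ratio of 0.55. Cdk4 lies near a border in each line, 0.338 Mb beyond the start of its segment in 15376T and 0.963 Mb before the end of it in 14837T. The segments on the other side of these borders had a log2 of -0.035 in 15376T and -0.23 in 14837T, and each was called at 2 copies. Cdk4 is in neither gene table, so its own depth was not analysed here.

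Cdk6, the partner of cyclin D beside Cdk4, lies at the start of chromosome 5 from 3341004 to 3531008, and its first bases precede the first bin. It was the only member at 2 copies in both lines, as 41.5% of all names were, with a log2 of 0.058 over 2954 bins in 15376T and -0.030 over 2949 bins in 14837T. The difference of 0.088 was smaller than the spread.

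**Figure D4:**
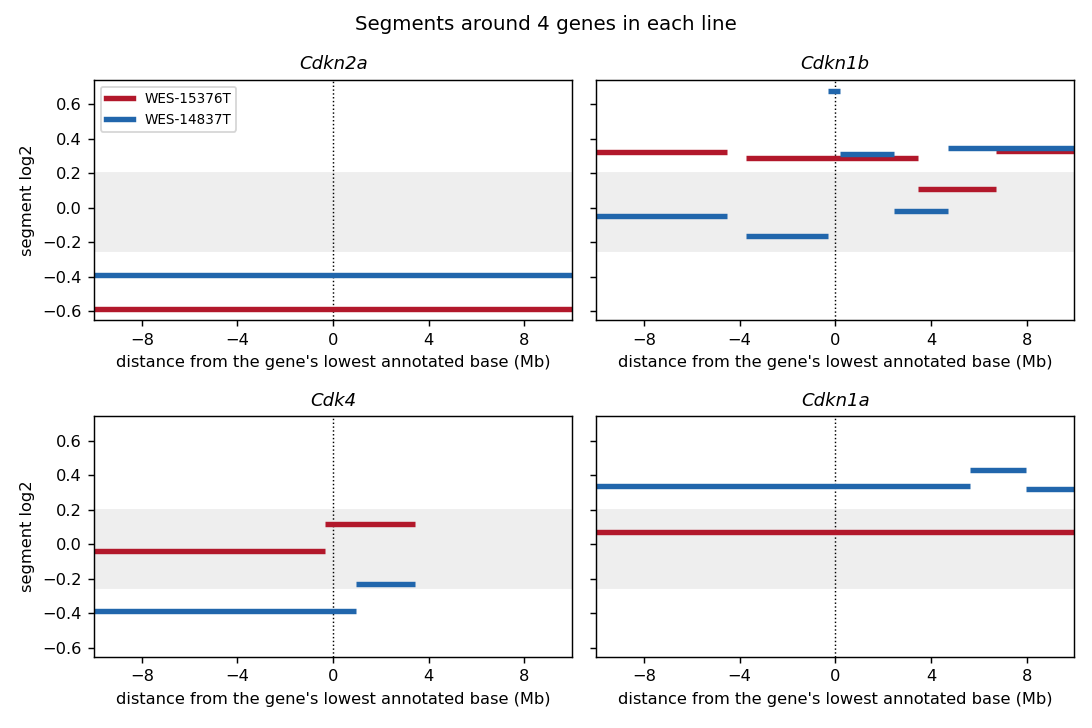
Log2 of the segments (y axis) within 10 Mb of Cdkn2a, Cdkn1b, Cdk4 and Cdkn1a by distance from the lowest annotated base of the gene (x axis, Mb; dotted line at the gene), with 15376T in red, 14837T in blue and the range of a 2-copy call shaded. Cdkn2a has no border in view, Cdkn1b sits in a short step to 0.68 in 14837T, and Cdk4 sits near a border in each line.

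The cyclins were lost in both lines. Ccnd1 encodes cyclin D1 and lies at the far end of chromosome 7, from 144929931 to 144939831, and Ccne1 encodes cyclin E1 and lies on the same chromosome from 38097984 to 38107490. In 15376T both lie in the same segment of 122 Mb and 13453 bins, with a log2 of -0.53. In 14837T they lie in separate segments, with a log2 of -0.44 over 626 bins for Ccnd1 and of -0.46 over 1257 bins for Ccne1. The differences between the lines, 0.090 and 0.074, were smaller than the spread. Ccnd1 had an own depth of 26.1 in 15376T and 30.7 in 14837T over 5 bins, and Ccne1 of 32.2 and 39.4 over 10 bins. Both genes had the lower depth in 15376T, with log2 ratios of the own depths of -0.19 for Ccnd1 and -0.25 for Ccne1. These lay -0.099 and -0.17 from the segments' differences, each within 1 SD of the mean over listed genes given for Rb1.

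The 6 genes lost in both lines were all lower in 15376T, by 0.074 to 0.20. Of the 4698 names lost in both lines, 93.0% were lower in 15376T, and the median difference of -0.16 was close to the -0.17 of the members. The deeper log2 of the lost G1 genes was thus shared by lost genes at large. The difference passed the spread in 4 of the 6, Rb1 and the INK4 members, which are a single measurement, and in 3122 of the 4698 names. Among all 10 members it did so in 7, and among all names in 49.6%.

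Inhibitors were also set against kinases and cyclins of the pathway within each line. In 15376T the log2 of Cdk4 stood 0.71 above that of Cdkn2a, a ratio of 1.63, and in 14837T it stood 0.0054 above it, a ratio of 1.00. The spread of such a difference between segments of a line was 0.13 in each, so Cdk4 was past the spread above Cdkn2a in the first line and within it in the second, and the values differed by 0.70. With the lines' own segment depths the values were 0.82 and 0.065. For Cdk6 the difference from Cdkn2a was 0.65 in 15376T and 0.36 in 14837T, past the spread in each. For Ccnd1 it was 0.056 and -0.053, within the spread. The log2 of Ccne1 minus that of Cdkn1b was -0.82 in 15376T and -1.14 in 14837T, where the value of Cdkn1b is that of its short segment. By own depth over the 2-copy mean this order was not kept in 14837T, with -0.27 for Ccne1 and -0.33 for Cdkn1b.

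The BAF was given for 10 members in 15376T, from 0.038 to 0.094, and for 9 in 14837T, from 0.041 to 0.097, and was blank for Cdkn1b in 14837T. In 15376T lost members had 0.051 to 0.094, members at 2 copies 0.039 to 0.083 and the gained Cdkn1b 0.038. In 14837T lost members had 0.052 to 0.097, Cdk6 at 2 copies 0.050 and the gained Cdkn1a 0.041, so the lost members were the highest there, by a narrow margin over Cdk6. The number of variants behind each BAF is not known.

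Other genes of the G1/S transition were read from a list of 23. In 15376T, 7 were lost, 13 were at 2 copies and 3 were gained. The share lost, 30.4%, was near the 30% of all names, and the share gained was 13.0% against 9.09%. In 14837T, 6 were lost, 9 were at 2 copies and 8 were gained. The share gained, 34.8%, stood above 21.4%, and the share lost was 26.1% against 28.8%. Of these gained genes, Ccna2, E2f5, Fbxw7 and Cks1b all lie on chromosome 3. Ccna2 and E2f5 share a segment there, so their value is a single measurement. The calls differed between the lines for 12 of the 23, against 29.3% of all names and 2 of the 10 members. The median log2 of the list was -0.025 in 15376T and -0.049 in 14837T, near the medians of all names.

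Lost in both lines were Cdkn1c, Ccne2, E2f2 and E2f8, 4 of the 23, against 22.4% of all names. Cdkn1c encodes the CIP/KIP inhibitor p57 and had the values of Ccnd1, with which it shares a segment in each line. Its depth over its own 2 bins was low in both, with log2 ratios to the segment of -1.38 in 15376T and -1.17 in 14837T, at the 2.45th and 2.34th percentile of genes with as many bins. E2f2, an activating E2F, lies in the segment of the INK4 members in each line. Ccne2, the second E-type cyclin, had a log2 of -0.59 in 15376T and -0.41 in 14837T, and E2f8, a repressing E2F, of -0.53 and -0.43. The own depth of Ccne2 over 12 bins did not follow its call. It stood above the 2-copy mean, at 0.22 in 15376T and 0.50 in 14837T on the log2 scale. These values lay at the 97.0th and 98.1st percentile of genes with as many bins, relative to their segments. E2f8 had -0.16 in each line over 12 bins, and E2f2, listed in 15376T only, had -1.02 over 6 bins. In 15376T all 4 lie in the segments of the INK4 members or of the cyclins, so they add no measurement of their own there. Gained in both were 2 of the 23, against 6.87% of all names. These were E2f5, with 0.40 and 0.43, and E2f6, with 0.21 and 0.203, just above the threshold. The segment of E2f5 in 15376T had a depth of 44.6, or -0.046 on the log2 scale over the 2-copy mean, so its depth did not show the gain. The gene's own 6 bins had a depth of 93.5 there, or 1.02.

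Gained in 14837T and at 2 copies in 15376T were the INK4 gene Cdkn2d (0.36 and 0.099), the cyclins Ccnd3 (0.32 and -0.019) and Ccna2 (0.43 and -0.025), and 3 genes that turn over cell-cycle proteins. Skp2, the ubiquitin ligase subunit that marks p27 for destruction, had a log2 of 0.23 in 14837T and -0.11 in 15376T. Its cofactor Cks1b had 0.62 and 0.097, and Fbxw7, the subunit that marks cyclin E, had 0.38 and -0.098. These genes are not all separate gains in 14837T. Cks1b, Fbxw7 and Ccna2 lie on chromosome 3, where the segments of Fbxw7 and Cks1b adjoin. Ccnd3 lies on chromosome 17, in a segment of the long gain described for Cdkn1a. The log2 of Skp2 in 14837T was close to the threshold of 0.2. Cks1b had an own depth of 98.5 over 3 bins in 14837T, and Ccna2 of 89.8 over 10 bins. The depth of the segment of Ccna2 did not separate the lines as its log2 did. It was 60.6 in 14837T and 56.0 in 15376T, or 0.35 and 0.28 on the log2 scale over the 2-copy means. The log2 ratio of 15376T to 14837T by these depths was -0.067, against a difference of segment log2 of -0.45.

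Lost in 15376T and at 2 copies in 14837T were Tfdp1, with a log2 of -0.60 and -0.072, Tfdp2, with -0.61 and -0.058, and Cdc25a, with -0.46 and 0.10. Tfdp1 and Tfdp2 encode the partners with which E2F factors bind DNA, and Cdc25a the phosphatase that activates Cdk2. Tfdp1 is crossed by a border in 15376T, and the value is that of the segment with more of the gene. Own depths in 15376T over the 2-copy mean were -0.33 for Tfdp1 (10 bins), -0.16 for Tfdp2 (11 bins) and -0.16 for Cdc25a (15 bins). They lay nearer to the level of 2 copies than the log2 of the segments. Relative to their segments they were at the 57.2nd to 74.8th percentile of genes with as many bins. Lost in 14837T and at 2 copies in 15376T were E2f3 (-0.47 and -0.036) and E2f7 (-0.38 and -0.035), of which E2f7 shares the segment of Cdk4 in 14837T. The own depth of E2f3 in 14837T was 43.8 over 9 bins, or -0.12 over the 2-copy mean, at the 68.7th percentile relative to its segment. Ccnd2 was the only gene of the list gained in 15376T alone, with 0.33 there and -0.045 in 14837T. Rbl1, Rbl2, Cdk2, E2f1 and E2f4 were at 2 copies in both lines. Cdk2 lies in the segment of Cdk4 in 15376T (0.12) and in the next segment in 14837T (-0.23).

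**Figure D5:**
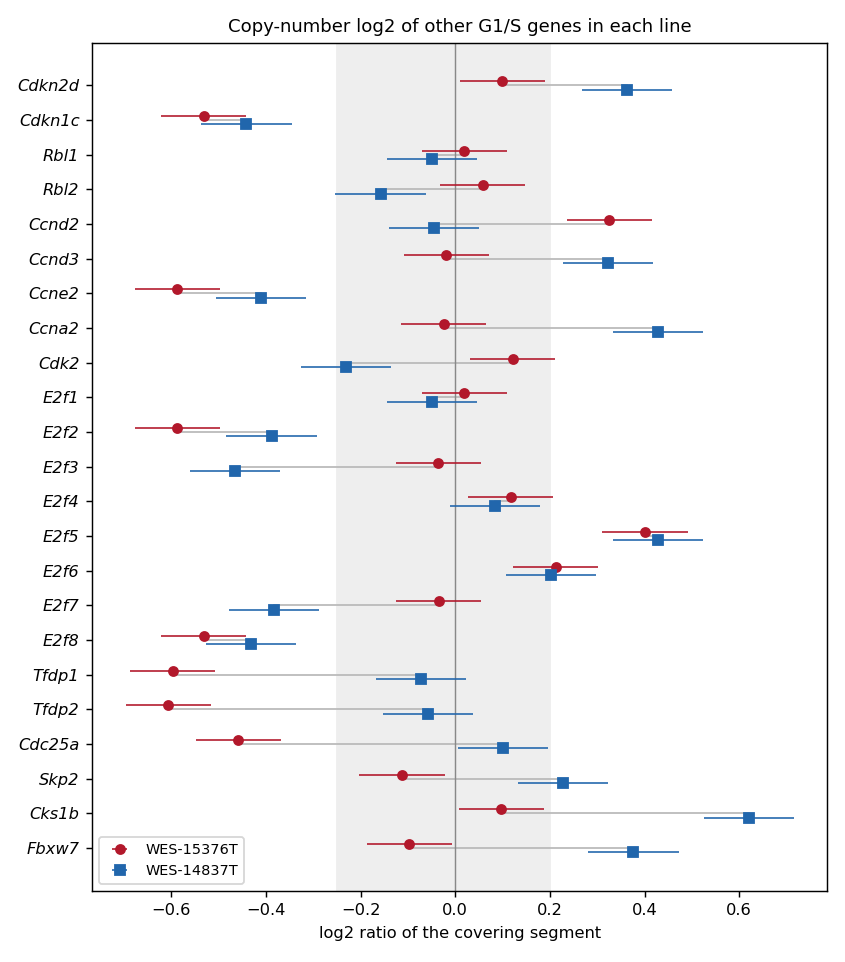
Log2 ratio of the segment that covers each of 23 other genes of the G1/S transition (x axis, log2) in 15376T (circles) and 14837T (squares), with bars of 1 SD of the segments called at 2 copies in that line and the range of a 2-copy call shaded. Cdkn1c, Ccne2, E2f2 and E2f8 lie left of the shaded range in both lines, and Cks1b in 14837T (0.62) has the highest value.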

How the data were processed

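DNA of 15376T and 14837T was captured and sequenced as WES, 1 library per line, and the authors deposited tables of segments and of genes, on mm10 per the labels. The log2 deposited by the authors is a ratio of coverage to a reference that is not named. The deposited depth is a coverage signal without normalization. The deposited BAF is a fraction from 0 to 1. The weight deposited by the authors is a score and was not used. The columns are those of CNVkit. The aligner, program version, filters and copy-number reference are not given in the sources used here. RNA-seq and the tail DNA were not analysed here. A further allele of the mice is not reported here.

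Members and lists were chosen with earlier results of these data known. A member was found by its name in the gene column, and its segment's log2, BAF, depth and borders were taken, with starts rewritten to count from 1. Names in more than 1 segment were left out of the background (83 in 15376T and 120 in 14837T). A gene of the list in more than 1 segment took the segment with the longer overlap. Positions and the sequences of gene starts are from RefSeq (GRCm38.p6), to which all 33 genes matched. Own depth was set against genes of the same line with the same number of bins. Named genes were all members, all genes of the list and, for some members, the nearest coding gene on each side. Genes of the Cdkn1b segment in 14837T, and Gm12610, which shares the bins of Cdkn2b, were named as well. Depth limits what a value covers, since a segment is a mean over its bins and a gene of 2 bins has little depth of its own. With 1 library per line there is no test and no SE. Alternatives were other thresholds, recentred log2, own depths, a minimum of bins and members found by position. Scripts were first tested on simulated data, under Python 3.11.15, numpy 2.4.6 and pandas 2.3.3, and figures were drawn with matplotlib 3.10.9.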

Additional observations from a re-analysis of the deposited data

Results flagged for a closer look

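In 5 genes the log2 lay on opposite sides of 0 in the lines and past the SD of 2-copy segments in each. This difference was not tested, as each line has 1 library. Cdk4 differed by 0.50 (0.12 in 15376T and -0.38 in 14837T) and Cdk2 by 0.35 (0.12 and -0.23). For Cdk2 the segment depth in 14837T was 46.7, or -0.026 on the log2 scale over the 2-copy mean, so by depth it was at the level of 2 copies. The log2 ratio of the segment depths of Cdk2 between the lines was 0.22. Cdc25a differed by -0.56 (-0.46 and 0.10), Skp2 by -0.34 (-0.11 and 0.23) and Fbxw7 by -0.47 (-0.098 and 0.38). The values of Cdk4 and Cdk2 in 15376T are a single measurement. In none of the 5 were the calls a gain in one line and a loss in the other.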

How the results depend on the processing

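No paired analysis was possible because no result comes from a test, with a single library for either line. For the same reason no replicate could be left out. Recentring on the autosomal median, finding members by position and the lines' own segment depths left all the counts and medians they were applied to within their limits. At an absolute log2 of 0.3, members gained in 15376T went from 1 to 0. Genes of the list of 23 gained went from 3 to 2 in 15376T and from 8 to 6 in 14837T. At 0.5, members gained went from 1 to 0 in 15376T and from 2 to 1 in 14837T, and members lost in 14837T from 7 to 0, while genes of the list of 23 gained went from 3 to 0 in 15376T and from 8 to 1 in 14837T, and those lost in 14837T from 6 to 0. With segments of at least 100 bins, members gained in 14837T went from 2 to 1, as Cdkn1b dropped out. With each gene's own depth, the median over members was -0.72 in 15376T (6 genes listed) and -0.30 in 14837T (4 genes listed), and the median absolute difference went from 0.20 to 0.25 (3 genes listed in both). Own depth turned the sign of Cdkn1b in 14837T, from 0.68 to -0.33. It moved Rb1 from -0.55 to -0.28 in 15376T and from -0.41 to -0.016 in 14837T. These medians also differ in the genes they hold, and otherwise the cause was not tested. A log2 near a threshold, such as that of E2f6, and a gene of 1 to 3 bins are where depth limits the values most.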
